A study of Mus musculus with 12 samples.

Results

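*Ereg* (epiregulin), *Areg* (amphiregulin), *Hbegf* (heparin-binding EGF-like growth factor) and *Tgfa* (transforming growth factor alpha), which encode ligands of the EGF receptor family, were followed together with the FGF receptor gene *Fgfr1* and the growth factor genes *Pdgfb* and *Igf1* in bone marrow cells exposed to indole-3-propionic acid (IPA), a tryptophan metabolite made by gut bacteria. These are 7 of the 54532 genes in the table of counts, each with 1 row. They were chosen by symbol after the response of several of them in these same libraries was known, so their fold changes are given as a description, without p-values. Whether any of them is called, by a threshold given below, is a description too. Bone marrow of wild-type C57BL/6 mice was cultured for 5 days with GM-CSF and IL-6, cytokines that drive myeloid differentiation. The cultures received vehicle (0.1% DMSO), 10 µM IPA or 50 µM IPA, and 4 RNA-seq libraries were made per group. The study that made these libraries describes 10 µM as a physiological level and 50 µM as a supraphysiological level. It reports slightly lower cell viability at 50 µM, and for this reason it centred its own analysis on 10 µM. GM-CSF and IL-6 were present in all 3 groups, so no library shows cells without these cytokines. The labels do not say whether the libraries of a group came from separate animals or cultures, and the spread between them may therefore be technical.

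The EGF family ligands are made as membrane-anchored precursors, and metalloproteases, chiefly ADAM17 and ADAM10, release the growth factor from the cell surface. Epiregulin, amphiregulin, HB-EGF and TGF-alpha bind EGFR, and epiregulin and HB-EGF also bind ERBB4. FGFR1 is a receptor tyrosine kinase for fibroblast growth factors and is best known from mesenchymal and progenitor cells. PDGF-B is a mitogen for mesenchymal cells that megakaryocytes and macrophages make, and macrophages are a known local source of IGF-1.

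*Ereg* (ENSMUSG00000029377) and *Areg* (ENSMUSG00000029378) are neighbours on the plus strand of mouse chromosome 5. In GENCODE M21 on GRCm38, *Ereg* spans chr5:91074622-91093646 and *Areg* spans chr5:91139599-91148432, with 45952 bases and no annotated gene between them. Both encode the same 6-cysteine EGF module, as does *Tgfa* (ENSMUSG00000029999, chr6:86195223-86275719, plus strand). The coding stretch of the module is shown for these 3 ligands because it is the receptor-binding part that they share. Each stretch is 108 bases long, from the first to the last cysteine codon, and the cysteine codons are in capitals.
Ereg: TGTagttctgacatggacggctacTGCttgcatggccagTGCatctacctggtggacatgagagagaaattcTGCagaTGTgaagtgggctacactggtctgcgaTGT
Areg: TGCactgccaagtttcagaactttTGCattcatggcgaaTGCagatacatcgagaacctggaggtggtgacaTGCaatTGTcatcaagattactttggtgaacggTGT
Tgfa: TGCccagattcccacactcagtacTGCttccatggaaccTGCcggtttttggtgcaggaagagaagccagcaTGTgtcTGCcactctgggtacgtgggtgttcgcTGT

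Successive cysteines had 7, 4, 10, 1 and 8 residues between them in all 3 modules. Of the 36 encoded residues, 15 were identical between *Ereg* and *Tgfa*, 14 between *Areg* and *Tgfa*, and 12 between *Ereg* and *Areg*. The 2 neighbouring genes therefore had the lowest identity of the 3 pairs. The module lay at residues 61 to 96 of 162 in Ereg-201, at residues 139 to 174 of 248 in Areg-201 and at residues 46 to 81 of 159 in Tgfa-201. In each transcript it was split over exons 3 and 4, with 77 bases in the first and 31 in the second. For *Ereg* these are chr5:91088496-91088572 and chr5:91089081-91089111, for *Areg* chr5:91143614-91143690 and chr5:91144334-91144364, and for *Tgfa* chr6:86263200-86263276 and chr6:86269930-86269960.

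Of the 7 genes, RefSeq promoter sequence (GRCm38.p6) was at hand for *Areg*, *Igf1* and *Tgfa*. The cAMP response element TGACGTCA, searched on both strands, occurred once in the *Areg* window, starting 61 bases before the transcription start, and in neither of the others. Of 32851 promoters of the same length (250 bases before to 50 after the start), 588 (1.79%) held it. The AP-1 motif TGANTCA, searched in the same way, occurred once in the *Igf1* window, starting 37 bases before the start, and in 2565 (7.81%) of all promoters. The RefSeq start used for *Igf1* lies inside its GENCODE M21 span, which begins at chr10:87858265. The bases just before that RefSeq start end at chr10:87861110. The 100 bases just before the *Areg* start (chr5:91139499-91139598, plus strand) are shown because they hold the cAMP response element, the rarer of the 2 motifs. It is in capitals, and whether it bears on the level of *Areg* was not tested.
Areg upstream: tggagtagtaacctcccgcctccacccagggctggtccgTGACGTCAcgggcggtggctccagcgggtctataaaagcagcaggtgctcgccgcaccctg

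Library totals on genes ran from 20451312 to 28038612 reads. A level is a TMM-normalized CPM (the reads on a gene, scaled by the library total after that total was adjusted by a TMM factor). Group values are mean ± SD (n = 4 libraries). The mitochondrial share of the reads ranged from 0.674% to 1.28%. Within each group, all pairs of libraries differed by more than sampling noise. Of 8 macrophage markers and 9 neutrophil markers (among them *Csf1r*, *Adgre1*, *S100a8* and *Ly6g*), all were expressed above the filter described next. So were all markers used for Ly6C-high monocytes, dendritic cells, mast cells and basophils, eosinophils, B cells and megakaryocytes. Passing the filter therefore does not show which cells made up the cultures. The filter asked for over 0.5 CPM in 2 or more of all 12 libraries. It left 14894 genes, which were tested by edgeR's quasi-likelihood test with Benjamini-Hochberg adjustment over all of them. A gene is called at an adjusted p under 0.05. Of the 7 genes, 6 passed the filter and *Tgfa* did not.

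At 10 µM IPA, 1 of the 6 tested genes (*Fgfr1*, higher) was called, beside 0.410% of all genes tested, and 2 (*Fgfr1* and *Igf1*, both higher) had groups that did not overlap, beside 6.13% of all genes. The 61 calls behind the 0.410% depended on the fit, with 4 without replicate 2 at 10 µM, 122 without vehicle replicate 4 and 250 by DESeq2. At 50 µM, 3 were called against vehicle (*Fgfr1* and *Hbegf* higher, *Ereg* lower), beside 13.5% of all genes, and the groups of the same 3 did not overlap, beside 20.0% of all genes. The 2010 calls behind the 13.5% were 1247 without vehicle replicate 3 and 1313 without replicate 2 at 50 µM. Between 50 µM and 10 µM, all 6 were called (*Fgfr1* and *Hbegf* higher, *Ereg*, *Areg*, *Igf1* and *Pdgfb* lower), beside 15.4% of all genes, and 4 did not overlap, beside 20.3% of all genes. Because the genes were picked knowing some of these responses, nothing is read from these counts. The median log2 fold change of the 6 was 0.27, 0.22 and -0.58 in the 3 comparisons, and that of all tested genes was -0.01, 0.01 and 0.01. The vehicle libraries serve both comparisons with vehicle, and each IPA group serves 2 comparisons, so the 3 sets of values are not independent.

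**Figure D1:**
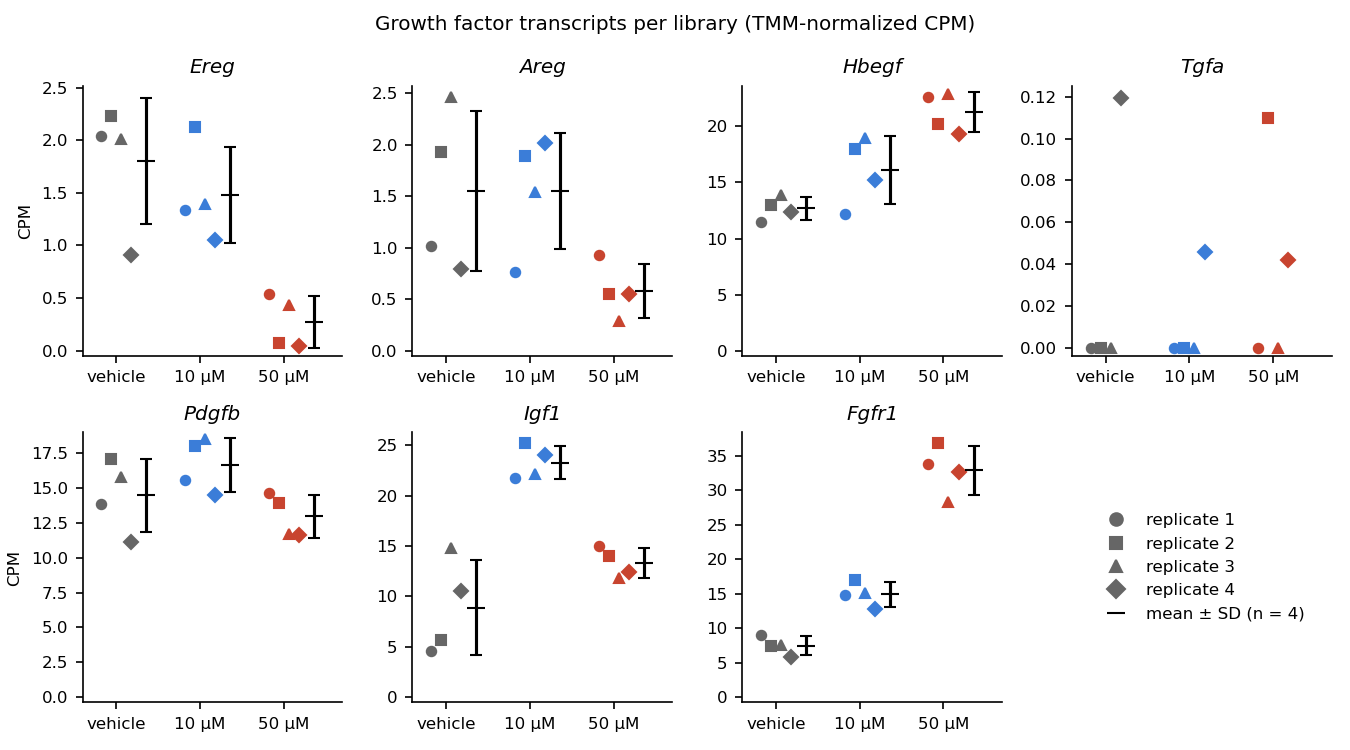
TMM-normalized CPM of the 7 transcripts (y axes, linear) in the 12 libraries by group (x axes). Marker shapes stand for replicate numbers and black bars for mean ± SD, left out for *Tgfa*. *Fgfr1* is separate in all 3 groups, from 5.80 to 9.07 CPM with vehicle to between 28.3 and 36.8 CPM at 50 µM, and the 4 *Ereg* values at 50 µM lie under all others.

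*Ereg* was a low transcript whose level was lowest at 50 µM IPA. In the vehicle libraries 1 to 4 it had 2.04, 2.23, 2.015 and 0.914 CPM (54, 60, 45 and 23 reads). In the 10 µM libraries it had 1.34, 2.13, 1.39 and 1.05 CPM (37, 44, 37 and 23 reads). In the 50 µM libraries it had 0.537, 0.0732, 0.437 and 0.0420 CPM (11, 2, 9 and 1 reads). All 4 libraries at 50 µM lay below every library of the other groups, whereas vehicle and 10 µM overlapped. The means were 1.80 ± 0.598, 1.48 ± 0.459 and 0.272 ± 0.252 CPM. The log2 fold change was -0.29 ± 0.33 (standard error) at 10 µM, -2.77 ± 0.58 at 50 µM against vehicle, a level 6.80-fold lower, and -2.48 ± 0.57 at 50 µM against 10 µM. With 23 reads in all over the 4 libraries at 50 µM, the size of the difference was known only roughly, and it ranged from -3.35 to -2.40 against vehicle when single libraries were left out. Replicates 2 and 4 at 50 µM, with 2 and 1 reads, lay under the floor of 3 reads per library used for *Tgfa* below. Only replicate 1 of this group was above 0.5 CPM, so *Ereg* passed the filter through the other groups. The antisense gene *Gm19610* covers the first 152 bases of the *Ereg* locus on the opposite strand and had 0 reads in the 12 libraries.

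*Areg*, the neighbouring ligand gene, also had a lower mean at 50 µM, but with overlap between the groups. Its levels were 1.02, 1.93, 2.46 and 0.795 CPM with vehicle (27, 52, 55 and 20 reads). At 10 µM they were 0.760, 1.89, 1.54 and 2.01 CPM (21, 39, 41 and 44 reads). At 50 µM they were 0.928, 0.549, 0.291 and 0.546 CPM (19, 15, 6 and 13 reads). The highest library at 50 µM, replicate 1, lay above the lowest of both other groups, vehicle replicate 4 and replicate 1 at 10 µM. The means of 1.55 ± 0.781 with vehicle and 1.55 ± 0.563 CPM at 10 µM were nearly equal, with a log2 fold change of -0.01 ± 0.41. The mean at 50 µM was 0.578 ± 0.262 CPM. The log2 fold change at 50 µM was -1.41 ± 0.45 against vehicle, which did not pass the threshold, and -1.41 ± 0.42 against 10 µM, which did. Without 50 µM replicate 1 or without vehicle replicate 4 the first also passed (-1.72 and -1.62), and the second no longer passed in 6 of the 8 fits without 1 library, all but those without replicate 1 of either group. Whether *Ereg* and *Areg* differed in their response was not tested.

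*Hbegf* (ENSMUSG00000024486, minus strand of chromosome 18) had higher levels at 50 µM. With vehicle it had 11.5, 13.03, 13.9 and 12.4 CPM (303 to 351 reads). At 10 µM it had 12.2, 17.95, 18.95 and 15.2 CPM, and at 50 µM 22.7, 20.3, 22.9 and 19.3 CPM (460 to 553 reads). The libraries at 50 µM lay above all others, and at 10 µM replicate 1 lay within the vehicle range. The means were 12.7 ± 1.02, 16.1 ± 3.03 and 21.3 ± 1.76 CPM. The log2 fold change was 0.34 ± 0.14 at 10 µM, 0.75 ± 0.10 at 50 µM against vehicle, a 1.68-fold higher level, and 0.41 ± 0.13 at 50 µM against 10 µM. The last of these lost its call in 5 of the 8 fits without 1 library (without replicate 1 or 4 at 10 µM, or without replicate 1, 2 or 3 at 50 µM), where it was between 0.29 and 0.43.

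*Tgfa* had 8 reads in all 12 libraries together. The vehicle libraries had 0, 0, 0 and 3 reads, those at 10 µM had 0, 0, 0 and 1, and those at 50 µM had 0, 3, 0 and 1. The floor used here is 3 reads per library, every library was at or under it, and no fold change is given. Of the other EGF family ligand genes, *Btc* (at most 4 reads in a library), *Epgn* (at most 9 reads), which lies on the other side of *Ereg*, and *Nrg3* (0 reads) were not tested either. The EGF family ligands of the 7 that carried reads in every library were thus *Ereg*, *Areg* and *Hbegf*.

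*Fgfr1* (ENSMUSG00000031565, chr8:25513654-25575718, plus strand) was higher at each IPA dose, and its 3 groups did not overlap. With vehicle it had 9.07, 7.42, 7.61 and 5.80 CPM (240, 200, 170 and 146 reads). At 10 µM it had 14.8, 17.0, 15.0 and 12.7 CPM (409, 352, 400 and 278 reads). At 50 µM it had 33.8, 36.8, 28.3 and 32.7 CPM (693, 1006, 584 and 778 reads). The lowest library at 10 µM was above the highest with vehicle, and the lowest at 50 µM above the highest at 10 µM. The means were 7.48 ± 1.34, 14.9 ± 1.76 and 32.9 ± 3.52 CPM. The log2 fold change was 0.99 ± 0.14 at 10 µM (1.99-fold), 2.15 ± 0.13 at 50 µM against vehicle (4.43-fold) and 1.15 ± 0.10 between the IPA doses (2.22-fold). The call at 10 µM was lost without replicate 2 or 3 of that group (0.92 and 0.99), whereas both calls at 50 µM were kept in all 8 fits without 1 library. The antisense gene *Gm16159*, which overlaps its exons, had 0 reads.

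*Fgfr1* is well expressed in mesenchymal cells, and 8 stromal markers were therefore summed. Their sum was 6.75 to 12.4 CPM with vehicle, 6.08 to 10.3 CPM at 10 µM and 3.44 to 4.71 CPM at 50 µM. At 10 µM, where *Fgfr1* was also higher than with vehicle, the sums overlapped those with vehicle and no stromal marker was called. *Lepr* made up most of the sum, with means of 6.55, 6.42 and 2.78 CPM in the 3 groups. Only *Col1a1* and *Lepr* of the 8 passed the filter, *Lepr* was called lower at 50 µM against both other groups and *Col1a1* in neither, and 3 of the 8 had no read in the 4 libraries at 50 µM. The part of stromal cells in the level of *Fgfr1* was not tested.

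*Pdgfb* (ENSMUSG00000000489, chr15:79995874-80014977, minus strand) varied little between the groups. Its levels were 13.8, 17.1, 15.8 and 11.1 CPM with vehicle, 15.6, 18.05, 18.5 and 14.5 CPM at 10 µM, and 14.6, 13.9, 11.7 and 11.6 CPM at 50 µM. The groups overlapped in all 3 comparisons. The means were 14.5 ± 2.60, 16.7 ± 1.93 and 12.97 ± 1.54 CPM, and the log2 fold change was 0.20 ± 0.14 at 10 µM and -0.15 ± 0.14 at 50 µM against vehicle. Against 10 µM, the 50 µM group was lower by a log2 fold change of -0.36 ± 0.12, a call that was lost in 5 of the 8 fits without 1 library (without replicate 2 or 3 at 10 µM, or without replicate 2, 3 or 4 at 50 µM). Markers of megakaryocytes, a known source of PDGF-B, summed to 273 to 315 CPM with vehicle, 268 to 337 CPM at 10 µM and 342 to 393 CPM at 50 µM.

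*Igf1* (ENSMUSG00000020053, chr10:87858265-87937042, plus strand) was highest at 10 µM, and its vehicle libraries were uneven. With vehicle it had 4.54, 5.64, 14.8 and 10.5 CPM (120, 152, 331 and 265 reads). At 10 µM it had 21.8, 25.2, 22.1 and 24.0 CPM (521 to 601 reads), and at 50 µM 15.0, 14.0, 11.8 and 12.4 CPM (243 to 383 reads). The libraries at 10 µM lay above all others, while vehicle replicate 3 lay inside the 50 µM range. The means were 8.88 ± 4.74, 23.3 ± 1.62 and 13.3 ± 1.47 CPM. Against vehicle the log2 fold change was 1.40 ± 0.29 at 10 µM, a 2.64-fold higher level that did not pass the threshold, and 0.60 ± 0.28 at 50 µM. The first passed without vehicle replicate 3 (1.76) or replicate 4 (1.50), and the second without vehicle replicate 3 (0.96). Between the doses the 50 µM group was lower by a log2 fold change of -0.80 ± 0.10, called in all 8 fits without 1 library. The order of *Igf1* was thus not that of the dose, in contrast to the order of the *Fgfr1* and *Hbegf* means.

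Macrophages are a known source of IGF-1, and the sum of the 8 macrophage markers was also highest at 10 µM. They summed to 1593 to 1760 CPM with vehicle, 1806 to 2050 CPM at 10 µM and 1657 to 1762 CPM at 50 µM. Of the 8 macrophage markers, 2 were called higher at 10 µM against vehicle, and 2 higher and 1 lower at 50 µM against vehicle. At 50 µM against 10 µM, 5 were called lower and 1 higher. *Csf1r* was the largest part of the sum, with means of 938, 1002 and 738 CPM in the 3 groups. *Adgre1* was highest at 50 µM (203, 215 and 324 CPM), and the means of the other macrophage markers were highest at 10 µM. The sums of endothelial markers (45.4 to 60.7, 63.4 to 75.5 and 45.4 to 56.2 CPM) and of group 2 innate lymphoid cell markers (78.4 to 97.5, 100.8 to 105.5 and 68.8 to 83.9 CPM) were highest at 10 µM too. Mean sums of Ly6C-high monocyte markers (1455, 1712 and 918 CPM) and dendritic cell markers (2025, 2161 and 1807 CPM) also peaked at 10 µM. So did those of T and NK cell markers (10.8, 10.9 and 8.88 CPM), and in each of these types libraries overlapped those with vehicle. These and the following counts of called markers stand beside 0.410%, 13.5% and 15.4% of all genes called in the same 3 comparisons. At 50 µM, where *Ereg* and the mean of *Areg* were lower, the mean summed markers of Ly6C-high monocytes and of neutrophils were also lower than in both other groups, with overlap between libraries for neutrophils. The 4 Ly6C-high monocyte markers summed to 1239 to 1711 CPM with vehicle, 1623 to 1789 CPM at 10 µM and 819 to 1055 CPM at 50 µM, and at 50 µM 3 of the 4 were called lower against vehicle and 4 of the 4 against 10 µM. The 9 neutrophil markers summed to 15318 to 22106, 14734 to 17049 and 10934 to 15511 CPM in the same order, with 5 and 6 of the 9 called lower at 50 µM against vehicle and against 10 µM, and none higher. *Ly6g* was not among them, with means of 45.8, 51.0 and 53.9 CPM. The 5 B cell markers summed to 18.3 to 25.3 CPM with vehicle, 22.6 to 32.7 CPM at 10 µM and 36.5 to 56.6 CPM at 50 µM, and all 5 were called higher at 50 µM in both comparisons. At 50 µM against vehicle, 2 of 6 dendritic cell markers were called higher and 2 lower, 1 of 7 mast cell and basophil markers higher and 1 lower, 1 of 4 group 2 innate lymphoid cell markers higher, 2 of 4 megakaryocyte markers higher and none of 4 eosinophil markers. The part of the cell types in the levels of the 7 genes was not tested. In these bulk libraries, fewer cells that express a gene and less RNA of it per cell cannot be told apart.

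**Figure D2:**
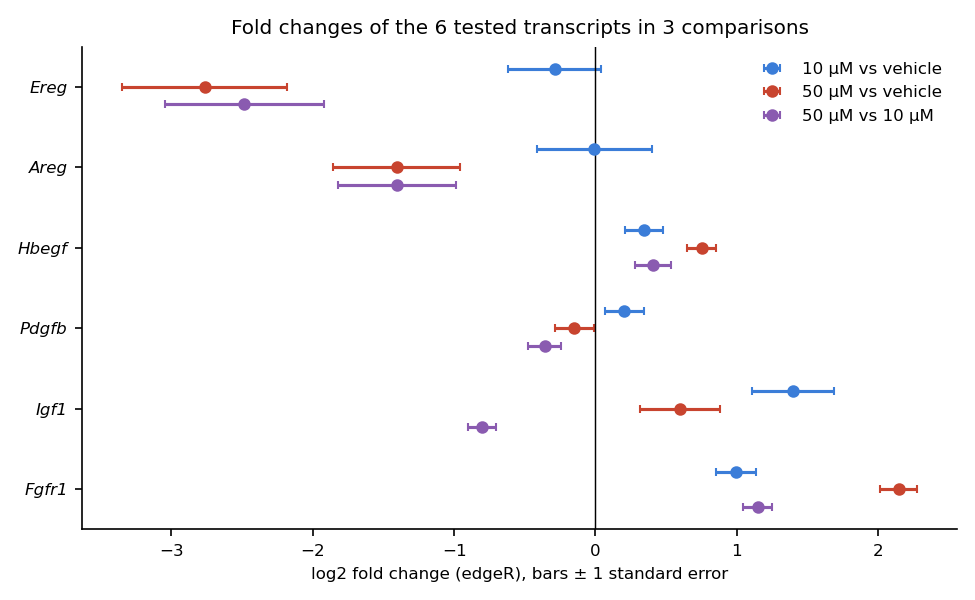
Log2 fold changes (x axis, points) with bars of 1 standard error for the 6 tested transcripts (y axis) in the 3 comparisons, 8 libraries each. *Ereg* and *Areg* lie left of 0 in both comparisons of 50 µM, *Fgfr1* and *Hbegf* lie right of 0 in all 3, and *Igf1* lies at 1.40 at 10 µM against vehicle and at -0.80 between the doses.

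Divided by exon length, which allows levels of different genes to be set side by side, the vehicle order in CPM per kilobase was *Pdgfb* (3.48 ± 0.626), *Hbegf* (2.63 ± 0.212), *Areg* (1.28 ± 0.642), *Igf1* (0.897 ± 0.479), *Fgfr1* (0.757 ± 0.136), *Ereg* (0.436 ± 0.145) and *Tgfa* (0.0046). From *Areg* to *Fgfr1*, neighbours lay within 1 SD of each other. At 10 µM the order was *Pdgfb* (4.01 ± 0.464), *Hbegf* (3.33 ± 0.626), *Igf1* (2.35 ± 0.164), *Fgfr1* (1.51 ± 0.178), *Areg* (1.28 ± 0.464), *Ereg* (0.358 ± 0.111) and *Tgfa* (0.0018), with *Fgfr1* and *Areg* within 1 SD of each other. At 50 µM it was *Hbegf* (4.40 ± 0.365), *Fgfr1* (3.33 ± 0.357), *Pdgfb* (3.12 ± 0.371), *Igf1* (1.34 ± 0.149), *Areg* (0.476 ± 0.216), *Ereg* (0.0659 ± 0.0609) and *Tgfa* (0.0058). *Fgfr1* and *Pdgfb* were within 1 SD of each other there. *Hbegf* was the highest EGF family ligand of the 7 in each group. By its mean, *Fgfr1* stood below *Areg* and *Igf1* with vehicle, above *Areg* at 10 µM and above all but *Hbegf* at 50 µM.

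Receptors, proteases, signal regulators and other ligands of the same systems were taken from lists of 113 genes, of which 69 passed the filter. The lists hold textbook members of each system and were not picked by how their genes moved, but they were written with earlier results of these libraries known, so their counts and adjusted p-values are not independent evidence. At 10 µM, 1 of the 69 was called (higher). At 50 µM, 14 were called against vehicle, 10 higher and 4 lower, and 14 against 10 µM, 6 higher and 8 lower. These counts stand beside 0.410%, 13.5% and 15.4% of all genes tested, and the lists' median log2 fold changes were 0.08, 0.01 and -0.05. Adjusted p-values below are from edgeR's test over all genes, and fold changes are log2 with standard errors.

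Receptor transcripts for the EGF family ligands were low. *Egfr* had 1.39 ± 0.502 CPM with vehicle, 0.968 ± 0.167 at 10 µM and 0.821 ± 0.355 at 50 µM. *Erbb3*, whose product needs a partner receptor to signal, had 5.67 ± 0.799, 6.43 ± 0.416 and 5.67 ± 0.574 CPM. Neither was called in any comparison. *Erbb2* had at most 7 reads and *Erbb4* at most 2 reads in a library, and neither was tested. Among the other ligand genes, *Nrg1*, a ligand of ERBB3 and ERBB4, was the most abundant at 63.3 ± 5.47, 58.2 ± 5.89 and 67.8 ± 8.89 CPM and was not called. *Nrg2* fell at 50 µM against 10 µM, from 2.08 ± 0.455 to 0.705 ± 0.332 CPM, which is -1.56 ± 0.37 on the log2 scale (adjusted p = 0.0096), the 1 call among 4 tested ligands beyond the 7 genes, beside 15.4% of all genes. Against vehicle its log2 fold change was -1.36 ± 0.45 (adjusted p = 0.0613).

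Of 11 tested genes for the release of EGF family ligands, 3 were called at 50 µM against vehicle, 2 higher and 1 lower, beside 13.5% of all genes, and the median log2 fold change of the 11 was 0.05. *Adam17*, which encodes the main sheddase of amphiregulin, epiregulin, HB-EGF and TGF-alpha, fell from 239 ± 6.72 CPM with vehicle and 257 ± 11.0 CPM at 10 µM to 180 ± 8.78 CPM at 50 µM. Its log2 fold change was -0.40 ± 0.07 against vehicle (adjusted p = 0.00148) and -0.51 ± 0.06 against 10 µM (adjusted p = 3.73e-05). *Rhbdf2*, which encodes an iRhom that carries ADAM17 to the cell surface, rose from 112 ± 1.87 to 133 ± 8.15 CPM (0.26 ± 0.07, adjusted p = 0.0243), and against 10 µM by 0.20 ± 0.06 (adjusted p = 0.0466). *Adam8* rose at 50 µM against vehicle by 0.24 ± 0.07 (adjusted p = 0.0424). The calls of *Rhbdf2* against vehicle and of *Adam8* were each lost in 5 of the 8 fits without 1 library, that of *Rhbdf2* against 10 µM in 6, and both calls of *Adam17* in none. Without a filter on low counts, *Adam8* (adjusted p = 0.0569) and both calls of *Rhbdf2* (adjusted p = 0.0536 against vehicle and 0.0803 against 10 µM) were lost as well. *Adam10*, the other main sheddase, was not called at 260 ± 9.41, 260 ± 3.46 and 244 ± 12.8 CPM.

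Among 15 tested genes that the ERK pathway induces or that restrain it, 4 rose at 50 µM against vehicle and none fell, beside 13.5% of all genes called in either direction. The median log2 fold change of the 15 was 0.16, and that of all tested genes was 0.01. *Etv4*, a transcription factor gene induced by FGF signalling, went from 0.904 ± 0.374 to 2.52 ± 0.874 CPM (1.49 ± 0.35, adjusted p = 0.0124). *Spred3*, a Sprouty-related inhibitor gene, rose by 0.83 ± 0.20 (adjusted p = 0.0144), *Dusp5*, an ERK phosphatase gene, by 0.63 ± 0.08 (adjusted p = 0.000173) and *Phlda1* by 0.38 ± 0.09 (adjusted p = 0.0163). Against 10 µM, *Etv4* (1.25 ± 0.33, adjusted p = 0.0168), *Spred3* (0.74 ± 0.20, adjusted p = 0.0175) and *Dusp5* (0.49 ± 0.07, adjusted p = 0.000201) rose. *Etv1* fell between the doses by a log2 fold change of -0.92 ± 0.23 (adjusted p = 0.0124) with overlapping groups, and is named after its value was seen. The other feedback genes, such as *Dusp6* at 132 ± 7.51, 141 ± 8.95 and 131 ± 6.22 CPM, were not called in these 2 comparisons. *Etv4* and *Spred3* lost their calls without replicate 2 at 50 µM in both comparisons (*Etv4* 1.26 and 1.03, *Spred3* 0.78 and 0.70), and *Etv4* against 10 µM also without replicate 4 at 50 µM (1.20). *Phlda1* lost its call without vehicle replicate 1 (0.36) or 3 (0.33). Of 14 tested adaptors and inhibitors of ERBB signalling, 1 was called between the doses, beside 15.4% of all genes, and none in the comparisons with vehicle. It was *Errfi1*, which encodes an EGFR inhibitor and fell from 33.8 ± 4.02 to 19.4 ± 1.88 CPM (-0.80 ± 0.10, adjusted p = 7.04e-05). At 10 µM against vehicle its log2 fold change was 0.50 ± 0.125 (adjusted p = 0.1555), with groups that did not overlap.

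*Fgfr1* was the FGF receptor gene that carried the reads. *Fgfr2* had 1 read in the 12 libraries, *Fgfr3* at most 10 in a library and *Fgfr4* none. *Flrt2*, a transmembrane protein gene of a family that binds FGF receptors, rose from 13.2 ± 2.21 CPM to 29.2 ± 6.68 CPM at 10 µM (1.14 ± 0.17, adjusted p = 0.0172), the 1 call of the lists at that dose, and to 28.1 ± 5.88 CPM at 50 µM (1.09 ± 0.16, adjusted p = 0.00054). The call at 10 µM was lost in 4 of the 8 fits without 1 library (without replicate 1 or 2 with vehicle, or 2 or 3 at 10 µM). Its relative *Flrt3* fell at 50 µM to 18.0 ± 2.51 CPM from 28.7 ± 3.03 with vehicle (-0.66 ± 0.11, adjusted p = 0.00195) and 34.0 ± 1.79 at 10 µM (-0.91 ± 0.10, adjusted p = 1.52e-05). Of 24 FGF ligand and binding protein genes, 5 passed the filter. *Fgf23*, a phosphate-regulating hormone best known from bone, went from 4.04 ± 1.15 CPM with vehicle and 3.02 ± 0.214 at 10 µM to 10.5 ± 0.967 CPM at 50 µM (1.38 ± 0.18, adjusted p = 0.000296, and 1.80 ± 0.14, adjusted p = 6.45e-07). *Fgf13*, whose product stays inside the cell and is not a ligand of FGFR1, fell to 3.41 ± 0.698 CPM from 7.02 ± 1.11 and 9.40 ± 1.14 (-1.04 ± 0.18, adjusted p = 0.00244, and -1.46 ± 0.17, adjusted p = 2.39e-05).

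**Figure D3:**
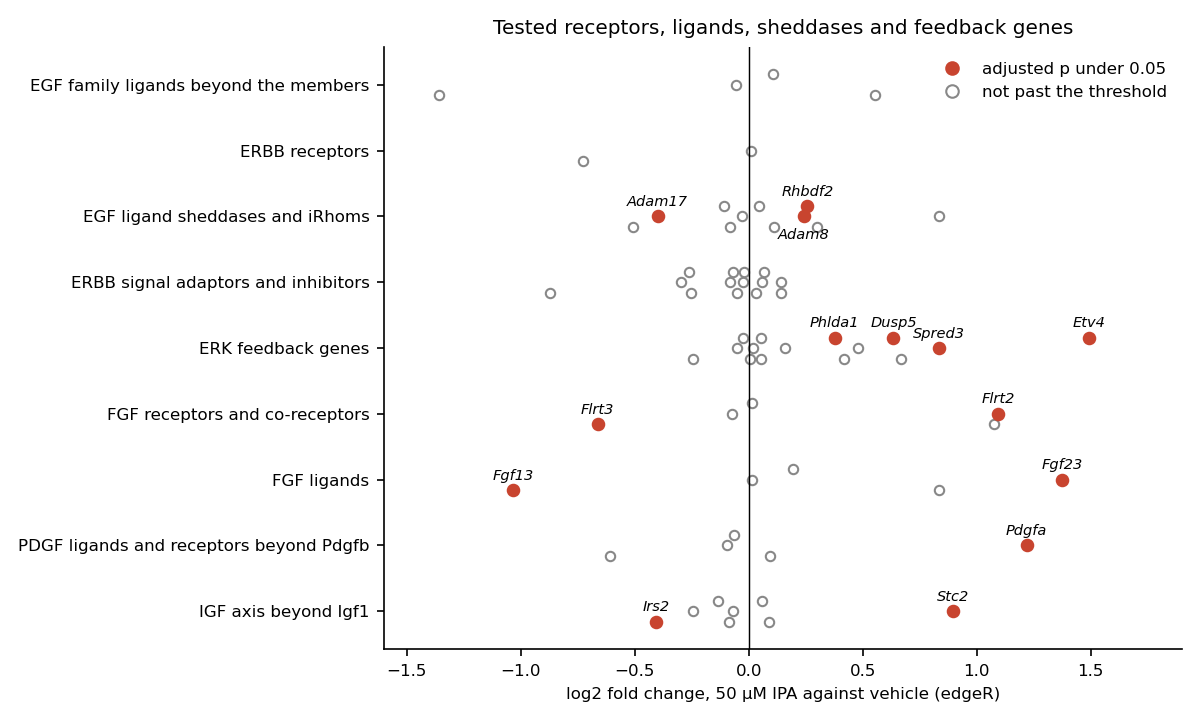
Log2 fold change at 50 µM IPA against vehicle (x axis) of the 69 tested pathway genes by list (y axis, 1 row per list, small vertical offsets for legibility). Filled red points are the 14 genes past the threshold, 10 higher and 4 lower. The 4 called ERK feedback genes all lie right of 0.

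In the PDGF system, *Pdgfa* rose at 50 µM while *Pdgfb* was not called against vehicle. *Pdgfa* had 9.65 ± 1.17 CPM with vehicle, 14.3 ± 1.39 at 10 µM and 22.4 ± 3.37 at 50 µM (1.22 ± 0.13 against vehicle, adjusted p = 6.11e-05, and 0.65 ± 0.12 against 10 µM, adjusted p = 0.00136). The receptor gene *Pdgfra* had at most 5 reads in a library, and *Pdgfrb* had 1.56 ± 0.282, 1.69 ± 0.332 and 1.45 ± 0.312 CPM and was not called. The receptors of the IGF system were abundant. *Igf1r* had 109 ± 11.7, 109 ± 12.5 and 98.9 ± 13.4 CPM and *Insr* 93.8 ± 8.86, 83.1 ± 12.3 and 99.2 ± 8.58 CPM, and neither was called. *Igf2r*, which clears IGF-2, fell from 92.8 ± 7.11 CPM at 10 µM to 67.0 ± 11.0 CPM at 50 µM (-0.47 ± 0.10, adjusted p = 0.00498). *Irs2*, an adaptor of both receptors, fell between the doses by -0.41 ± 0.11 (adjusted p = 0.0178), a call lost without replicate 3 or 4 at 10 µM or replicate 3 at 50 µM (-0.33, -0.35 and -0.35), and was also called lower at 50 µM against vehicle, with overlapping groups. *Stc2*, which encodes an inhibitor of the IGF-releasing protease PAPP-A, rose from 10.0 ± 2.49 to 18.5 ± 1.85 CPM at 50 µM against vehicle (0.89 ± 0.15, adjusted p = 0.00202).

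For each of the 6 tested genes, the genes nearest in pattern were found among the 12607 tested genes whose mean level reached 1 CPM, by the root mean square difference of log2 CPM after centring each gene on its mean over the 12 libraries. A value of 0 means the same pattern, and these values describe likeness over libraries that share 3 groups, without a test. Nearest to *Fgfr1* were *Palld* (0.22), an actin scaffold gene, *Ltbp3* (0.23), which encodes a latent TGF-beta binding protein, *Ccdc80* (0.23), a matrix protein gene, *Vsig8* (0.29) and *Aldh1a2* (0.30), which encodes a retinoic acid synthesizing enzyme, where the median over all candidates was 0.91. *Palld* had means of 13.1, 20.5 and 41.7 CPM and *Aldh1a2* 15.4, 24.7 and 49.4 CPM with vehicle, 10 µM and 50 µM. Nearest to *Ereg* were *Radil* (0.60), *Cd6* (0.72), *Tns1* (0.73), *Stac2* (0.78) and *Eef1a2* (0.81), with a median of 1.40 over all candidates. *Areg* was not among the 5 nearest to *Ereg*. The distances to *Ereg* and to *Fgfr1* are not on a common scale, because the few reads of *Ereg* add counting noise to all of its distances. For *Ereg*, 2 libraries with 1 and 2 reads enter this measure.

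The nearest genes to *Igf1* were *Mmp13* (0.25), a collagenase gene, *Ctsk* (0.37), which encodes the bone matrix protease cathepsin K, and *Slc36a2* (0.39). *Mmp13* had means of 38.3, 98.2 and 77.3 CPM with vehicle, 10 µM and 50 µM. *Hbegf* was nearest to *Cass4* (0.07), to *Ccl3* (0.13), a macrophage chemokine gene, and to *Gm807* (0.15), *Pdgfb* to *Jcad* (0.09), *Frmd4b* (0.11) and *Rc3h1* (0.12), and *Areg* to *Amer2* (0.40), *4921507P07Rik* (0.40) and *Mgam* (0.41).

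**Figure D4:**
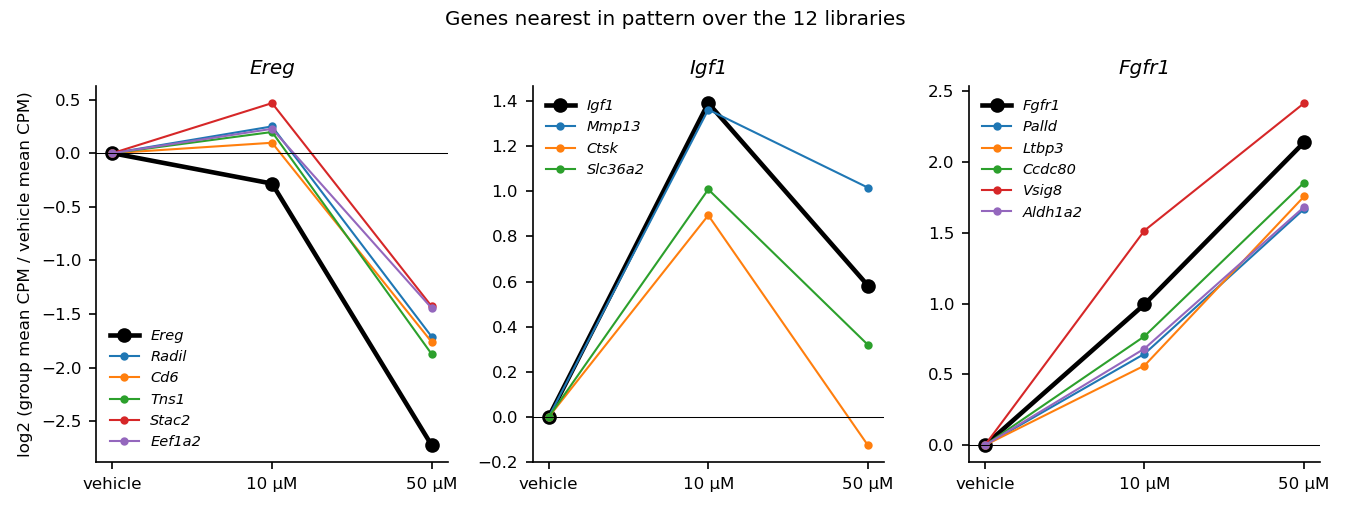
Log2 ratio of each group's mean CPM to the vehicle mean (y axes) for *Ereg*, *Igf1* and *Fgfr1* (thick black lines) and the genes nearest to each in pattern (thin coloured lines), by group (x axes, 4 libraries each). The *Fgfr1* lines rise at both steps, the *Igf1* lines peak at 10 µM, and the *Ereg* line lies under its 5 neighbours at 10 µM and at 50 µM.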

How the data were processed

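RNA-seq of 12 libraries, 4 each with vehicle, 10 µM and 50 µM IPA, was analysed. The values are raw counts per Ensembl gene (GRCm38.92) that the authors deposited after trimming with Atropos, alignment to mm10 with hisat2 2.2.1 and counting with featureCounts 2.0.1. Per the labels the kit was stranded, and the strand setting of the counting is not given in the sources used here. Replicate 3 at 10 µM repeats the title of replicate 2 and was mapped by its library name.

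Counts were compared pairwise on 8 libraries with edgeR 4.0.16 in R 4.3.3 (TMM, glmQLFit, glmQLFTest, threshold 0.05), after tests on simulated data. Exon lengths and positions are from GENCODE M21. Genes beyond the 7 were named by rule: the ERBB, FGF, PDGF and IGF receptors and *Insr*, *Adam10*, *Adam17*, *Rhbdf2*, called list genes whose groups did not overlap, and the 3 or 5 nearest in pattern. Outside the rule, and after their values were seen, *Nrg1*, *Btc*, *Epgn*, *Nrg3*, *Dusp6* and *Etv1* were named, and *Irs2* against vehicle. Of the fixed marker lists, *Lepr*, *Col1a1*, *Ly6g*, *Csf1r* and *Adgre1* were named in the same way. The 7 genes and all lists were chosen with earlier results of these data known. Alternatives were DESeq2 1.42.0, its size factors, other filters, all 12 libraries in 1 fit, a replicate block and leaving out each library. Totals ran from 20451312 to 28038612 reads per library, and precision is lowest for genes with few reads, such as *Ereg*.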

Additional observations from a re-analysis of the deposited data

Results flagged for a closer look

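In 5 of 153 groups of 4 libraries checked, 1 library lay far from the other 3 by Dixon's test at the 95% level (the gap to the nearest library, divided by the range), which chance gives in about 1 in 20 groups. *Ereg* in vehicle replicate 4 was at 0.914 CPM, with the others between 2.015 and 2.23 CPM. *Dusp5* in replicate 2 at 50 µM was at 127.4 CPM, with the others between 113.5 and 114.4 CPM. *Irs2* in replicate 3 at 50 µM was at 25.1 CPM, with the others between 28.6 and 29.3 CPM. *Adam10* in vehicle replicate 2 was at 245.7 CPM, with the others between 263.2 and 266.0 CPM. *Jcad*, the gene nearest in pattern to *Pdgfb*, was at 7.90 CPM in replicate 3 at 10 µM, with the others between 6.59 and 6.73 CPM.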

How the results depend on the processing

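Of 248 alternative values of the 18 fold changes of the 6 tested genes, 210 kept their direction and their side of the threshold. The calls of *Ereg* and *Fgfr1* in both comparisons of 50 µM, of *Hbegf* at 50 µM against vehicle and of *Igf1* between the doses were kept in every fit that gave a value. These fits reuse the libraries whose results were known when the genes were chosen, so a kept call is not independent evidence. No value was obtained for *Tgfa* in these fits, nor for *Ereg* and *Areg* at 50 µM with at least 10 reads required in every library. The named pathway genes kept 341 of 377 alternative values, lost the call in 36, and none changed sign.

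At 10 µM the number of genes called, 61, was 250 with DESeq2, 150 without a filter, 118 with all 12 libraries, 3 with a replicate block and 4 to 122 without 1 library. The pathway genes called, 1, numbered 5, 4, 3, 0 and 0 to 1 in the same order. *Igf1* passed the threshold with DESeq2 (log2 fold change 1.39), without a filter (1.40) and with all 12 libraries (1.40), and was 1.18 to 1.76 without 1 library. *Fgfr1* lost its call with the replicate block (1.00) and was 0.89 to 1.103 without 1 library. With the block, *Flrt2* at 10 µM (1.13), *Adam8* at 50 µM against vehicle (0.24) and *Rhbdf2* between the doses (0.19) also lost their calls. *Areg*, near 0, turned to 0.029 with the block, to 0.12, 0.30 and 0.23 without vehicle replicate 2, vehicle replicate 3 or replicate 1 at 10 µM, and was -0.22 to 0.30 over these fits.

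At 50 µM against vehicle, 1247 (without vehicle replicate 3) to 2689 (without vehicle replicate 4) genes were called without 1 library, in place of 2010, and 9 (without replicate 2 at 50 µM) to 19 pathway genes in place of 14. Without replicate 2 at 50 µM, 1313 genes were called. *Areg* passed with DESeq2 (-1.42), without a filter (-1.42) and with all 12 libraries (-1.41), and was -1.72 to -1.098 without 1 library. *Igf1* passed without a filter (0.59) and was 0.37 to 0.96 without 1 library.

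Between the doses, *Areg* lost its call with the block (-1.41) and was -1.70 to -1.19 without 1 library, and *Hbegf* was 0.29 to 0.50. *Pdgfb* lost its call with all 12 libraries (-0.36) and with the block (-0.36) and was -0.42 to -0.30. The causes were not tested, and fits without 1 library have fewer samples.

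Same-numbered libraries of different groups deviated from their group means with correlations of -0.392 to 0.233, over 0.1 in 3 of 12 pairs, and 4 of the 12 libraries correlated best with their own number. The numbers were therefore not taken as a pairing. Of the 6 tested genes, depth limits *Ereg* and *Areg* most, at 1 to 60 reads per library. *Tgfa*, at 0 to 3 reads per library, was not tested.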
